A study of Homo sapiens with 4 samples.

Results

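The genes described here are 10 human amino acid transporter genes: the SLC7 transporters SLC7A1, SLC7A2, SLC7A5, SLC7A6, SLC7A7, SLC7A8 and SLC7A11, both SLC3 heavy chains SLC3A1 and SLC3A2, and the glutamine transporter SLC1A5. They are 10 of the 46427 genes in the deposited tables, and the set was picked on the rise of SLC7A7 with COP1-siRNA. The values of COP1-siRNA against NC-siRNA are therefore a description. RNA came from Huh7 and HepG2, both established human liver tumour cell lines labelled hepatocellular carcinoma with a WT genotype. Cells of each line were transfected by Lipofectamine with NC-siRNA, a negative control, or with COP1-siRNA, directed against the E3 ubiquitin ligase COP1, each at 20 nM, and were harvested 48 h later. Each of the 4 conditions is 1 library, all under one batch label, so there is no replicate check of any difference and no p-value. The knockdown is transient and rests on a single siRNA, and each line stands for itself only.

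SLC7 proteins carry amino acids across the cell membrane, mostly by exchanging one amino acid for another. The cationic transporters of the family act alone and bring in arginine and lysine, while its light chains reach the surface only when joined by a disulfide bond to a heavy chain, SLC3A2 (CD98 heavy chain) or SLC3A1. In liver, arginine, glutamine and cystine taken up in this way serve the urea cycle, protein synthesis and the making of glutathione, and tumour cells are known for high levels of SLC7A5, SLC3A2 and SLC1A5.

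Levels are given in TPM, transcripts per 1000000, which is normalized for gene length and library total, so that genes can be set beside each other. A fold change is log2 of the ratio of TPM + 1, a scale that understates changes of low genes. A gene was tested in a comparison if it reached 1 TPM in at least 1 of the compared libraries, and it is said to have risen or fallen, or to be higher or lower between lines, only past 2-fold. Paired values below are in the order NC-siRNA, then COP1-siRNA. COP1 itself was at 19.7 and 6.18 TPM in Huh7 and at 26.9 and 16.1 TPM in HepG2, which left 31.4% and 59.9% of its level. By the coverage per unit of FPKM, the libraries with COP1-siRNA were deeper than those with NC-siRNA, 1.13 times in Huh7 and 1.27 times in HepG2, and read numbers are unknown. All 8 hepatocyte markers reached 1 TPM, with sums of 15778 to 17849 TPM in Huh7 and 2665 to 3067 TPM in HepG2. Of the other cell types listed, 1 of 5 fibroblast, 1 of 4 endothelial and 3 of 4 biliary markers reached 1 TPM. In such bulk samples, fewer cells of a type and less RNA per cell cannot be told apart.

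Of the 10 transporters, 8 reached 1 TPM in each library, and 6 or 7 reached 10 TPM. Together they amounted to 540 TPM in Huh7 with NC-siRNA, 591 TPM in Huh7 with COP1-siRNA, 629 TPM in HepG2 with NC-siRNA and 761 TPM in HepG2 with COP1-siRNA. SLC3A2 stood first in 3 libraries and SLC1A5 in HepG2 with NC-siRNA, SLC7A5 held the third place in all 4, and SLC3A1 was last in all 4. SLC7A7 was the seventh of the 10 in Huh7 with NC-siRNA, the fifth with COP1-siRNA and the ninth in both HepG2 libraries. With 1 library per condition, the spread between replicates is unknown, so which neighbours in this order truly differ cannot be stated.

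**Figure D1:**
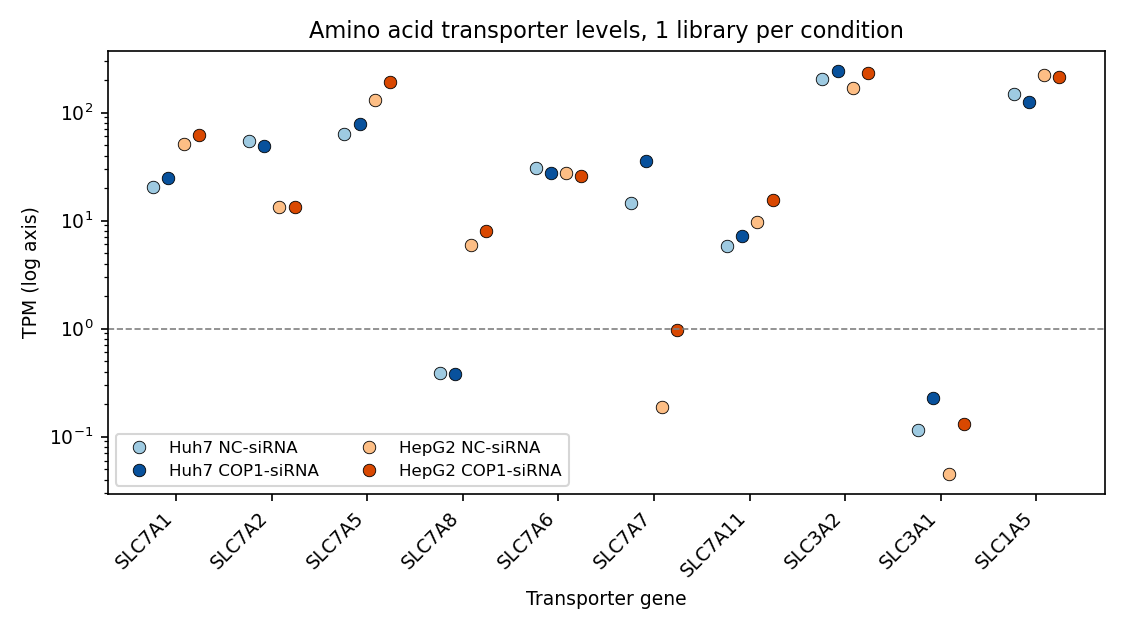
TPM of the 10 transporters on a log axis, with 1 point per library (light and dark blue: Huh7 with NC-siRNA and COP1-siRNA; light and dark orange: HepG2 with the same) and a dashed line at 1 TPM. SLC7A7 lies at 14.6 and 35.8 TPM in Huh7 and below the line in HepG2, whereas SLC7A8 lies below the line in Huh7 and at 5.97 and 8.05 TPM in HepG2.

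SLC7A7 (gene 9056, chromosome 14 of GRCh38, 22773222 to 22819796, minus strand) encodes a light chain of SLC3A2 that exchanges cationic for neutral amino acids and is mutated in lysinuric protein intolerance. In Huh7 it rose from 14.6 to 35.8 TPM, by 1.23 on the log2 scale or a plain ratio of 2.45. In HepG2 the levels were 0.189 and 0.968 TPM, under the limit for testing in both libraries. The deposited coverage, a mean number of reads per base, was 35.7 and 101 in Huh7 but 0.449 and 2.89 in HepG2, so the plain ratio of 5.13 in HepG2 rests on few reads. Its log2 fold change in HepG2 was 0.73 and lay between 0.39 and 1.89 over the alternative settings, against 1.21 to 1.36 in Huh7. Of all genes tested in Huh7, 0.34% had a log2 fold change at least as high as that of SLC7A7. The set was built around this gene and this comparison, so nothing is read from that share.

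SLC7A7 is also known from macrophages. Of the 6 macrophage and leukocyte markers, PTPRC and CSF1R were at 0 in all 4 libraries and 3 reached 1 TPM. Their summed level was 208 and 177 TPM in Huh7 and 208 and 167 TPM in HepG2. The sum was carried mainly by LYZ, at 145 and 119 TPM in Huh7 and 192 and 149 TPM in HepG2. CD68 was at 58.2 and 56.4 TPM in Huh7 and 15.6 and 17.3 TPM in HepG2, and CD14 at 4.47 and 2.24 TPM and 0.323 and 0.563 TPM. In Huh7, LYZ, CD68 and CD14 thus all had values with COP1-siRNA below those with NC-siRNA. In HepG2, LYZ was below and CD68 and CD14 were above. The part of these markers in the SLC7A7 levels was not tested.

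With COP1-siRNA in Huh7, 8 of the 10 transporters were tested, and SLC7A7 was the only one of them past 2-fold. Among all 13000 genes tested in Huh7, 0.638% rose and 0.446% fell past 2-fold, and none of the 8 transporters fell. In HepG2 8 transporters were tested and 0 passed 2-fold in either direction, where 0.54% of the 14456 genes tested rose and 0.394% fell. At 1.5-fold the count was 1 transporter in each line, SLC7A7 in Huh7 and SLC7A11 in HepG2, both toward higher levels. All-gene shares at 1.5-fold were 2.8% higher and 2.68% lower in Huh7, and 2.56% higher and 1.87% lower in HepG2. The median log2 fold change of the tested transporters was 0.27 in Huh7 and 0.33 in HepG2. For all genes tested it was −0.00083 and −0.0080, with an SD over single genes of 0.30 and 0.28. That SD is not the spread of a median of 8 genes. SLC7A7, on which the set was picked, is part of the median in Huh7, so nothing is read from that median.

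There were 7 transporters tested in both lines. SLC7A1, SLC7A5, SLC7A11 and SLC3A2 had values above 0 in both, which 29.2% of the 11970 genes tested in both lines also had. SLC7A6 and SLC1A5 had values below 0 in both, like 31% of these genes, although in HepG2 both turned to 0.0034 and 0.014 under upper-quartile scaling. SLC7A2 had values of opposite sign. None of these transporters passed 2-fold, so their values are given below without a call.

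**Figure D2:**
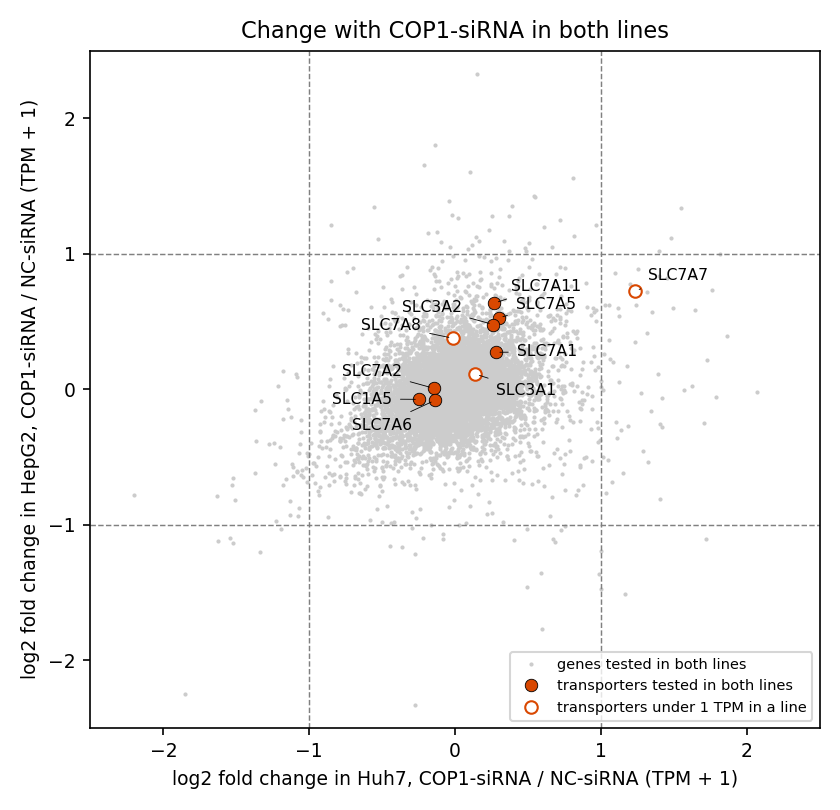
Log2 fold change with COP1-siRNA in Huh7 (x axis) against HepG2 (y axis), on the TPM + 1 scale, for the genes tested in both lines (grey) and the 10 transporters (orange; open circles are those under 1 TPM in both libraries of a line), with dashed lines at 2-fold and 2 genes outside the axes. SLC7A7 is the only transporter past the line in Huh7, and SLC7A11, SLC7A5 and SLC3A2 lie between 0.48 and 0.64 in HepG2.

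The cationic transporters were SLC7A1 and SLC7A2. SLC7A1 (gene 6541, chromosome 13, 29509410 to 29595688, minus strand), the widely expressed carrier of arginine, lysine and ornithine, had levels of 20.3 and 24.9 TPM in Huh7 and of 50.7 and 61.5 TPM in HepG2. The log2 fold changes were 0.28 and 0.27. Values at least as high were held by 12.2% of the genes tested in Huh7 and 10.6% in HepG2, so SLC7A1 did not stand out in either line.

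SLC7A2 (gene 6542, chromosome 8, 17494349 to 17570566, plus strand), the cationic transporter known from adult liver, stood at 54.7 and 49.3 TPM in Huh7. In HepG2 its level was 13.3 and 13.4 TPM. The log2 fold changes were −0.15 in Huh7 and 0.0080 in HepG2, where FPKM in place of TPM gave −0.0088, so the sign in HepG2 depends on the scale. Its coverage per TPM was 0.16 of the library median in each library, against 0.82 to 1.20 for the other 9 transporters in all libraries, which makes its level relative to other genes uncertain but leaves the ratios between libraries.

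SLC7A5 (gene 8140, chromosome 16, 87830022 to 87869507, minus strand) and SLC7A8 are the L-type light chains, which bring in leucine and other large neutral amino acids. SLC7A5 was measured at 62.9 and 77.7 TPM in Huh7 and at 131 and 190 TPM in HepG2. Its log2 fold change was 0.30 in Huh7 and 0.53 in HepG2, where 3.36% of the genes tested had a value at least as high. Reads of SLC7A5 may be shared with its pseudogenes SLC7A5P1 and SLC7A5P2. SLC7A5P1 rose in HepG2, where its levels of 0.0213 and 1.65 TPM gave a log2 fold change of 1.38 and its coverage was 0.0531 and 5.16. In Huh7 both of its levels, 0.00363 and 0.00660 TPM, were close to 0. Added up, the gene and its pseudogenes held 63.7 and 78.8 TPM in Huh7 and 133 and 193 TPM in HepG2. The log2 fold change of this sum, 0.30 and 0.54, was nearly that of SLC7A5 alone.

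SLC7A8 (gene 23428, chromosome 14, 23125295 to 23183660, minus strand) had 0.391 and 0.377 TPM in Huh7, below the limit for testing. In HepG2 it was at 5.97 and 8.05 TPM, with a log2 fold change of 0.38, and 6.30% of the genes tested had a value at least as high. SLC7A6 (gene 9057, chromosome 16, 68264510 to 68301819, plus strand), which like SLC7A7 exchanges cationic for neutral amino acids, was the most even of the tested transporters over the 4 libraries. It was at 30.5 and 27.6 TPM in Huh7 and 27.5 and 25.9 TPM in HepG2. The log2 fold changes were −0.14 and −0.08. Its 3′ end overlaps the oppositely oriented SLC7A6OS, at 8.002 to 12.0 TPM, by 3786 bases, and the libraries kept the strand, but how the reads of overlapping genes were divided is not given in the sources used here.

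SLC7A11 (gene 23657, chromosome 4, 138164097 to 138242349, minus strand) takes up cystine in exchange for glutamate and feeds glutathione synthesis. Its level was 5.81 and 7.22 TPM in Huh7 and 9.61 and 15.5 TPM in HepG2. The log2 fold change was 0.27 in Huh7 and 0.64 in HepG2, a plain ratio of 1.61 that 1.99% of the genes tested reached or passed on the log2 scale. SLC7A11-AS1, an antisense gene that overlaps it, was at 0 in all 4 libraries.

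The heavy chain SLC3A2 (gene 6520, chromosome 11, 62856109 to 62888860, plus strand) stood at 202 and 243 TPM in Huh7 and at 168 and 234 TPM in HepG2. Its log2 fold change was 0.26 in Huh7 and 0.48 in HepG2, where 4.10% of the genes tested were at least as high. SLC3A1 (gene 6519, chromosome 2, 44275464 to 44321494, plus strand), the heavy chain of the cystine transporter of kidney and gut, did not exceed 0.229 TPM in any library and overlaps PREPL, an oppositely oriented gene at 28.1 to 46.2 TPM. SLC7A9, its light chain, was listed at 0 in Huh7 and was at 1.503 and 2.57 TPM in HepG2, and SLC7A13 was at 0 in all 4 libraries.

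SLC1A5 (gene 6510, chromosome 19, 46774883 to 46788594, minus strand) exchanges glutamine and other neutral amino acids together with sodium. Its level was 148 and 125 TPM in Huh7 and 223 and 212 TPM in HepG2, and it was second or first among the transporters in all libraries. The log2 fold changes of −0.24 and −0.07 were matched or passed downward by 15.4% and 36.4% of the genes tested.

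The light chains that pair with SLC3A2 were summed to set them beside the heavy chain: SLC7A5, SLC7A6, SLC7A7, SLC7A8, SLC7A11 and SLC7A10, a carrier of small neutral amino acids that is not among the 10. The sum was 134 and 163 TPM in Huh7, which is 0.66 and 0.67 of SLC3A2. In HepG2 it was 175 and 240 TPM, or 1.04 and 1.02 of SLC3A2. Within each line the ratio of light to heavy chains was thus nearly the same with both siRNAs, while the log2 fold change of the sum was 0.28 in Huh7 and 0.46 in HepG2. The sum in Huh7 includes SLC7A7, on which the set was picked, at 14.6 and 35.8 TPM. The ratio in Huh7 therefore rests in part on that gene, and nothing is read from its evenness there. RNA levels do not give the number of joined proteins.

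The makeup of the sum differed between the lines. SLC7A5 held 47.1% and 47.8% of the sum in Huh7 and 75.2% and 79.0% in HepG2. SLC7A7 held 10.9% in Huh7 with NC-siRNA and 22.0% with COP1-siRNA, whereas it was 0.108% and 0.403% in HepG2. The shares of SLC7A6 were 22.8% and 17.0% in Huh7 and 15.7% and 10.8% in HepG2, smaller with COP1-siRNA in both lines. The level of SLC7A6 itself had log2 fold changes of only −0.14 and −0.08, while the sum was larger with COP1-siRNA. The shares of SLC7A10 were 14.4% and 8.52% in Huh7. SLC7A10 was at 19.3 and 13.8 TPM in Huh7 and was listed at 0 in HepG2, with a log2 fold change of −0.45 in Huh7. It shares 201 bases with the oppositely oriented LRP3, which was at 59.6 and 43.2 TPM in Huh7 and at 32.8 and 28.6 TPM in HepG2.

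**Figure D3:**
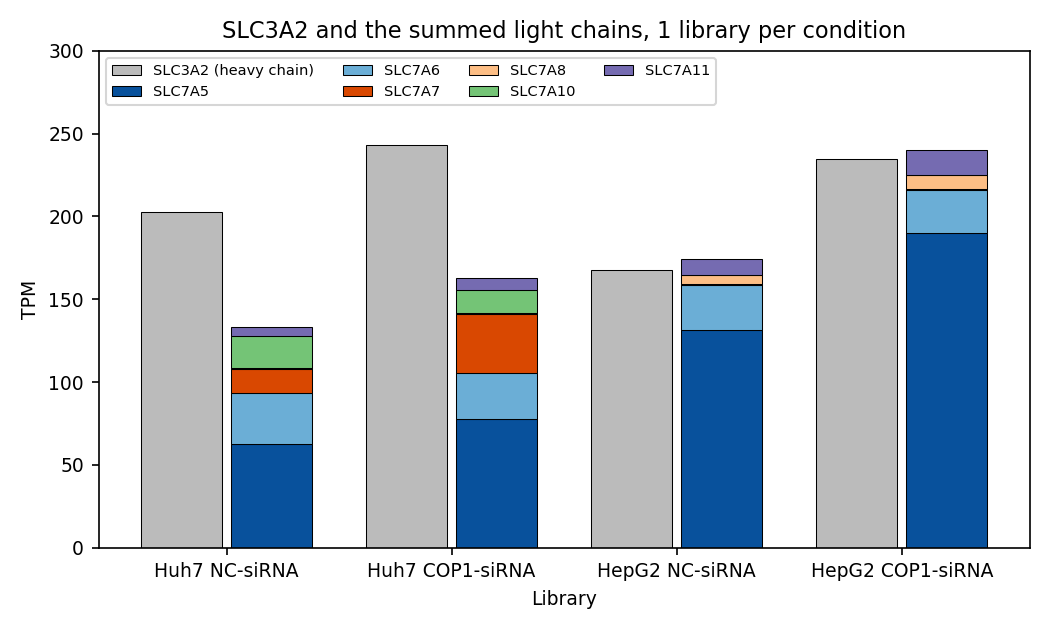
TPM of SLC3A2 (grey bars) beside the stacked TPM of the 6 light chains that pair with it (coloured), with 1 library per condition. SLC7A5 is the largest light chain in all 4 libraries, and the SLC7A7 segment grows from 14.6 to 35.8 TPM in Huh7 and is too small to see in HepG2.

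More genes differed past 2-fold between the lines than between the siRNAs. The NC-siRNA libraries of both lines were compared first and the COP1-siRNA libraries in the same way, and these comparisons share their libraries with the siRNA comparisons. Of the 9 transporters tested with NC-siRNA, SLC7A2 and SLC7A7 were higher in Huh7 and SLC7A1, SLC7A5 and SLC7A8 were lower, the lower count falling to SLC7A8 alone under median-of-ratios scaling. Among all 15055 genes tested, 14.7% were higher and 27.9% lower in Huh7, so differences of this size were common between the lines. With COP1-siRNA, the same 2 transporters were higher and 4 were lower, with SLC7A11 added at −1.01, and under median-of-ratios scaling, which put SLC7A11 at −0.71, again only SLC7A8 stayed lower, while 14% of the 15126 genes tested were higher and 26% lower. The median log2 difference over all genes was −0.37 with NC-siRNA and −0.35 with COP1-siRNA, and median-of-ratios scaling moved these medians to −0.042 and −0.040. The medians of the 9 tested transporters were −0.58 and −0.75.

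SLC7A7 had the largest difference between the lines of the 10 transporters, with a log2 value of 3.72 with NC-siRNA and 4.22 with COP1-siRNA. Values at least as high were held by 1.24% and 0.69% of the genes tested. The plain ratios of 77.5 and 36.9 rest on the low HepG2 levels. SLC7A2 was higher in Huh7 by 1.96 and 1.80 on the log2 scale, where 6.06% and 6.22% of the genes tested were at least as high.

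In the other direction, SLC7A8 had log2 differences of −2.33 and −2.72, levels that were 15.3 and 21.4 times as high in HepG2 on the plain scale. These ratios rest on Huh7 levels under 0.4 TPM, and the log2 differences ran from −1.63 to −3.63 and from −1.94 to −4.09 over the alternative settings, all past 2-fold. SLC7A1 had differences of −1.28 and −1.27, or −0.95 and −0.96 under median-of-ratios scaling, and SLC7A5 had −1.05 and −1.28, or −0.71 and −0.95 under that scaling. As 19.8% of all genes lay at least as low as SLC7A1 and 26.1% at least as low as SLC7A5 with NC-siRNA, these places were ordinary for the pair of lines. SLC3A2, at 0.27 and 0.05, SLC7A6, at 0.15 and 0.09, and SLC1A5, at −0.58 and −0.75, did not pass 2-fold.

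**Figure D4:**
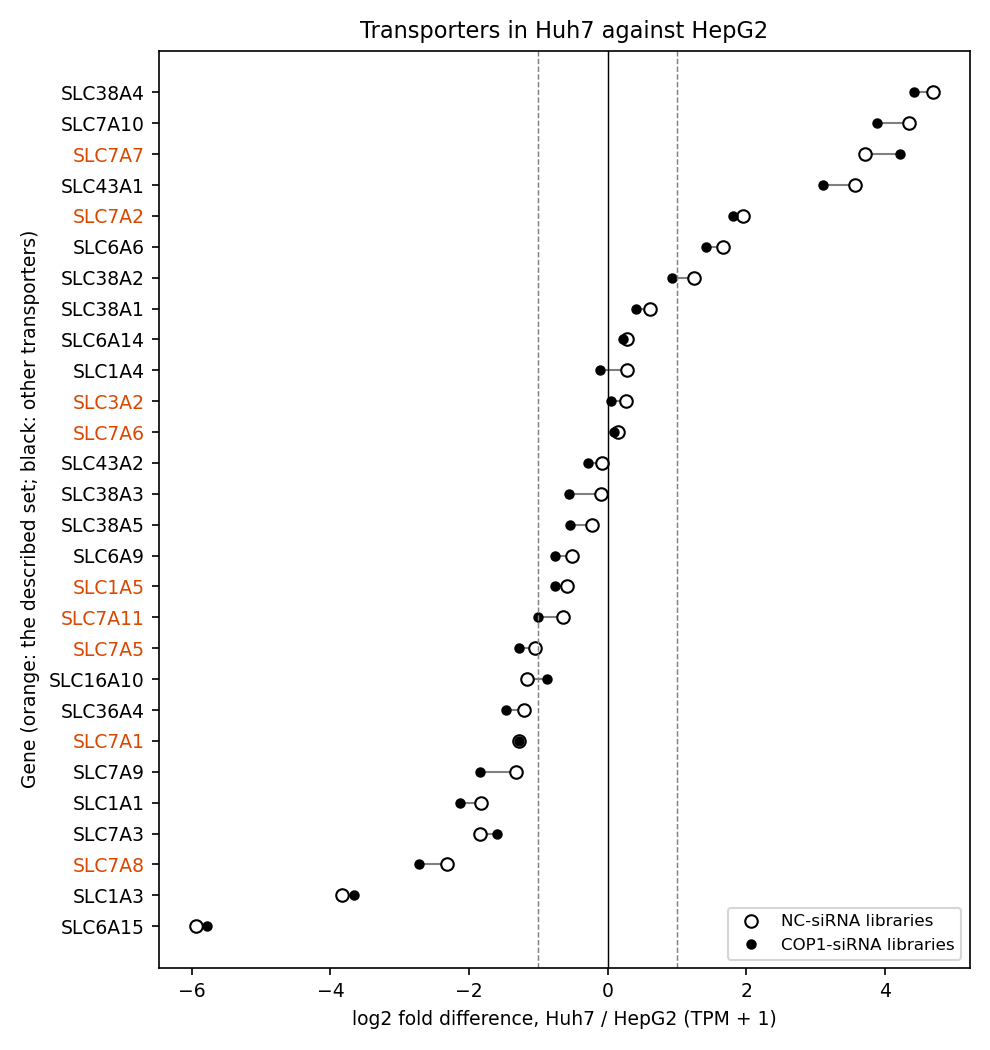
Log2 difference between Huh7 and HepG2 on the TPM + 1 scale for the described transporters (orange names) and the other SLC7 and plasma membrane amino acid transporters that were tested (black names), with NC-siRNA (open circles) and COP1-siRNA (filled circles) and dashed lines at 2-fold. SLC7A7 lies at 3.72 and 4.22, on the side higher in Huh7, and SLC7A8 at −2.33 and −2.72, on the side higher in HepG2.

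The other genes of amino acid transport and use were taken from 6 lists. With COP1-siRNA, 0 members of any list passed 2-fold in either line. Of all genes tested, 0.638% rose and 0.446% fell past 2-fold in Huh7, and 0.54% rose and 0.394% fell in HepG2. For lists of this size a count of 0 is near these shares, and nothing is read from it. Of 6 other SLC7 genes, 1 was tested in Huh7 and 2 in HepG2, the latter being SLC7A3, a cationic transporter at 2.60 and 2.02 TPM, and SLC7A9. Of 24 other plasma membrane amino acid transporters, 14 were tested in Huh7, with 4 above 0 and 10 below, and 15 in HepG2, with 10 above 0 and 5 below. Their medians were −0.16 and 0.12. SLC43A2, a carrier of branched-chain amino acids, was the only one of them past 1.5-fold, in HepG2. It had 3.18 and 5.65 TPM there, a log2 fold change of 0.67, and 2.96 and 4.48 TPM in Huh7, with 0.47. Of all genes tested in HepG2, 2.56% were higher past 1.5-fold. SLC43A2 and the other list members named here, and in the paragraphs on these lists below, were chosen after their values were seen.

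SLC38A2, a sodium-coupled glutamine and alanine carrier, was the most abundant of these other transporters in Huh7. Its level was 255 and 176 TPM in Huh7 (log2 fold change −0.53) and 107 and 91.7 TPM in HepG2 (−0.22). Between the lines, 4 of the 16 tested were higher in Huh7 with NC-siRNA and 5 were lower, beside 14.7% and 27.9% of all genes, so the lower count is near the general share. SLC43A1, a carrier of large neutral amino acids, was at 166 and 151 TPM in Huh7 against 13.1 and 16.7 TPM in HepG2. SLC38A4, an amino acid carrier known from liver, was at 30.6 and 21.9 TPM in Huh7 and at most 0.222 TPM in HepG2. SLC6A15, a carrier of branched-chain amino acids and proline, was listed at 0 in Huh7 and was at 60.4 and 53.7 TPM in HepG2, and the glutamate transporter SLC1A3 was at 0.880 and 1.25 TPM against 25.7 and 27.4 TPM. Each of these last 4 carriers differed past 2-fold between the lines with both siRNAs, SLC43A1 and SLC38A4 toward Huh7 and SLC6A15 and SLC1A3 toward HepG2.

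The amino acid response list holds 17 genes of the ATF4 pathway, through which cells short of amino acids raise transporters such as SLC7A11, SLC7A5 and SLC3A2. All 17 were tested in both lines. There were 6 above 0 and 11 below in Huh7 and 12 above and 5 below in HepG2, with medians of −0.04 and 0.07. ATF4 itself was at 296 and 293 TPM in Huh7 and 865 and 872 TPM in HepG2. Asparagine synthetase, ASNS, was at 37.6 and 39.3 TPM in Huh7 and 120 and 146 TPM in HepG2. For ASNS this is 0.06 and 0.28 on the log2 scale. CHAC1, which degrades glutathione, was at 4.70 and 6.89 TPM in Huh7 and 2.12 and 3.02 TPM in HepG2, with 0.47 and 0.36. ATF4, ASNS and CHAC1 were chosen after their values were seen. ASNS and CHAC1 were above 0 in both lines, while other genes of the list lay below 0. No gene of this list passed 1.5-fold with COP1-siRNA in either line. The all-gene shares at 1.5-fold were 2.8% higher and 2.68% lower in Huh7, and 2.56% higher and 1.87% lower in HepG2. For a list of 17 genes this count is near those shares.

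Of 16 lysosomal amino acid transporters and nutrient sensors, 15 were tested in Huh7 and 16 in HepG2, with medians of 0.07 and −0.04. SESN1, a leucine sensor of the mTORC1 pathway and a p53 target, was the only one past 1.5-fold, in Huh7. Its level there was 3.68 and 6.33 TPM (log2 fold change 0.65), while HepG2 had 22.4 and 19.5 TPM (−0.19). Of all genes tested in Huh7, 2.8% were higher past 1.5-fold. The 11 genes from cystine to glutathione had medians of −0.10 and 0.06, and of the 13 users of arginine and ornithine, 9 were tested in Huh7 and 10 in HepG2, with medians of 0.07 and 0.02.

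The 7-base sequence CCAAGTT, which pairs with the antisense seed of COP1-siRNA, was sought in the 3′ UTRs of the transporters, in 1 GENCODE 29 transcript per gene on GRCh38, since an siRNA can lower RNAs that hold such a site. It occurs in 10.1% of 18886 genes and in 3 of the 10 transporters. A longer 3′ UTR has more bases searched, and the share was not matched for length. Among the transporters the length ran from 100 bases (SLC3A2) to 7859 bases (SLC7A11), so nothing is read from the count. These sites are shown so that the values of the 3 genes can be read beside them. The capitals mark the site, 5′ to 3′ on the strand of the gene, at chr16:68298731-68298759 and chr16:68301579-68301607 (plus strand), chr14:23125621-23125649 (minus strand) and chr2:44321397-44321425 (plus strand).
SLC7A6, first site: gggctctccacCCAAGTTaggcctgctct
SLC7A6, second site: tatcatctaaaCCAAGTTccttcacactg
SLC7A8: ttggtgagatgCCAAGTTtggtctgagtt
SLC3A1: tgctgtcaagtCCAAGTTcctcgtacagg

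SLC7A6, with both its sites in a 3′ UTR of 4491 bases, had the log2 fold changes of −0.14 and −0.08 given above. SLC7A8 was tested only in HepG2, where it had 0.38, and SLC3A1 was under the limit for testing in each line. The match to the sense strand seed, AGCATTC, occurs in 9.06% of genes and in 0 of the 10 transporters. The 3′ UTR of SLC7A7, of 385 bases in this transcript, holds neither sequence, nor does that of SLC7A5, SLC7A11 or SLC3A2. A match is a description of the letters and not a shown site of action.

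Promoters were read from RefSeq (GRCh38.p14) as the 250 bases before each start site, for 7 of the 10 transporters with 16 start sites. SLC7A2, SLC7A11 and SLC3A1 were not in that table. Both strands were searched for 3 motifs, which may overlap each other. TGANTCA occurs in 6.57% of 35116 promoters, before 8.06% of 27305 genes, and before 2 of the 7 transporters, SLC3A2 and SLC7A8. It takes any middle base, so it is looser than the AP-1 motif TGA(C/G)TCA bound by c-Jun, itself a known COP1 substrate. Of the matches labelled AP-1 motif below, that of SLC3A2 has a C in the middle and fits this motif. That of SLC7A8 has a T there and lies outside it. TGATGNAA, the core of the amino acid response element bound by ATF4, occurs in 3.14% of promoters, before 3.89% of genes, and before SLC1A5. A looser string (TGA, any 5 bases, then GC) occurs in 35.8% of promoters and before 40.6% of genes. Among the transporters it occurs before SLC1A5, SLC3A2, SLC7A5, SLC7A6 and SLC7A7. Its spacing differs from that of the antioxidant response element core, which was not searched. Transporters with several start sites have more bases searched than a gene with 1. The rarer matches are shown with the motif in capitals, on the strand of the gene. They lie 37 bases before a start site of SLC3A2 (chr11:62881651-62881679, plus strand), 134 bases before one of SLC7A8 (chr14:23155437-23155465, minus strand) and 97 bases before one of SLC1A5 (chr19:46784893-46784922, minus strand).
SLC3A2, AP-1 motif: acgagggtgggTGACTCAgcgtcctcctt
SLC7A8, AP-1 motif: atactgggtggTGATTCAgcagaaacccc
SLC1A5, amino acid response element core: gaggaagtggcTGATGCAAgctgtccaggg

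The transporters with a TGANTCA match had log2 fold changes of 0.26 and 0.48 (SLC3A2) and, in HepG2, 0.38 (SLC7A8), none past 2-fold. SLC1A5, with the amino acid response element core, had −0.24 and −0.07. The promoters of SLC7A7 held neither of the 2 rarer motifs in the bases searched.

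Among the genes whose pattern over the 4 libraries was most like that of SLC7A7 were ANXA3, SCGN, MYOF and CLEC2L. Likeness was the Euclidean distance between the log2(TPM + 1) values of 2 genes, each centred on its own mean over the 4 libraries, among 15485 genes. ANXA3, an annexin that binds membranes in the presence of calcium, was nearest, at a distance of 0.413. Its levels were 101 and 168 TPM in Huh7 and 5.604 and 8.27 TPM in HepG2. The calcium-binding protein gene SCGN was at 37.8 and 58.2 TPM in Huh7 and rose in HepG2 with 1.22 and 4.11 TPM (log2 fold change 1.20), at a distance of 0.570. These 4 genes were, like SLC7A7, higher in Huh7 than in HepG2 by more than 3.5 on the log2 scale with either siRNA. This likeness follows from how these genes were chosen. In Huh7 with COP1-siRNA, their log2 fold changes were 0.53 to 0.74, below the 1.23 of SLC7A7 and below 2-fold.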

How the data were processed

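RNA of the Huh7 and HepG2 cells was sequenced from stranded poly(A) libraries. Per the submitters' processing notes, which give no order or role, FastQC 0.11.7, Trimmomatic 0.38, HISAT2 2.1.0, StringTie 2.1.3b and edgeR were used with GRCh38. The authors deposited 1 gene table per library. The TPM deposited by the authors is normalized for gene length and to a library sum of 1000000, the deposited FPKM is proportional to it within a library, and the deposited coverage is the mean number of reads per base, not normalized for depth. The tables hold no read counts, so the counting error of a value is unknown.

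The tables give gene numbers and no gene names. Symbols came from RefSeq (GRCh38.p14), where 44698 of 46427 gene numbers (96.3%) and 10 of 10 transporters were matched. TPM was summed per gene number. At most 51 numbers stood on several lines of a table, and 0 were transporters. Fold changes are log2((TPM + 1)/(TPM + 1)) within each line between siRNAs and within each siRNA between lines, for genes with at least 1 TPM in at least 1 compared library, with a 2-fold threshold and no test, since each condition is 1 library. The share of genes at least as far is counted over all genes tested, in the direction of the value. The transporters and the lists were chosen with earlier results of these data known. Named are the 10 transporters, COP1, list members past 2-fold in either line or past 1.5-fold in both, the 5 genes nearest to SLC7A7 (1 of them is not reported here), and genes that overlap a transporter or are its pseudogenes, and any other gene is marked in the text as picked with its values in view. The scripts were tested on simulated data. Alternatives were a pseudocount of 0.1, FPKM, median-of-ratios and upper-quartile scaling, no minimum TPM, a minimum of 5 TPM, a 1.5-fold threshold, the highest line of each gene number, and depth-scaled coverage, the last added after the data were seen. Python 3.11.15, numpy 2.4.6, pandas 2.3.3 and matplotlib 3.10.9 were used. Protein sequences were not used here.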

Additional observations from a re-analysis of the deposited data

Results flagged for a closer look

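SLC7A2 was the one transporter tested in both lines whose log2 fold change with COP1-siRNA had opposite signs in them, −0.15 in Huh7 and 0.0080 in HepG2. With 1 library per condition, the difference was not tested, and the value in HepG2 turned to −0.0088 with FPKM. Its level was 54.7 and 49.3 TPM in Huh7 and 13.3 and 13.4 TPM in HepG2 with NC-siRNA and COP1-siRNA.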

How the results depend on the processing

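With COP1-siRNA, 78 of 80 alternative values of the transporters in Huh7 and 77 of 80 in HepG2 kept their sign and their call. Part of this was fixed in advance, here and between the lines. With no minimum TPM, a minimum of 5 TPM or the highest line of each gene number, the fold changes of the transporters stay as they were. Under these settings no sign could change, so the counts overstate the agreement. SLC7A7 in HepG2, under the limit for testing and so without a call, went from 0.73 to 1.89, past 2-fold, with a pseudocount of 0.1. The changes of sign were SLC7A8 in Huh7 at 0.0012 (FPKM) and 0.023 (upper-quartile scaling), SLC7A2 in HepG2 at −0.0088 (FPKM), and SLC7A6 and SLC1A5 in HepG2 at 0.0034 and 0.014 (upper-quartile scaling). SLC7A7 stayed past 2-fold in Huh7, at 1.21 to 1.36. Between the lines, 78 of 80 values with NC-siRNA and 75 of 80 with COP1-siRNA kept both. Median-of-ratios scaling, which moved the all-gene medians from −0.37 and −0.35 to −0.042 and −0.040, left 3 transporters past 2-fold with NC-siRNA (5 before) and 3 with COP1-siRNA (6 before), the losses being SLC7A1 and SLC7A5 with both siRNAs and SLC7A11 with COP1-siRNA. SLC7A11 with COP1-siRNA was also under 2-fold with FPKM, at −0.91, and with coverage, at −0.99, which was added after the data were seen. At 1.5-fold, 1 transporter passed in HepG2. Over all genes, the counts past 2-fold, 141 in Huh7 and 135 in HepG2, became 390 and 372 with a pseudocount of 0.1, 57 and 39 with FPKM, 76 and 55 with a minimum of 5 TPM, and 713 and 640 at 1.5-fold, and between the lines with COP1-siRNA 6058 became 9319 at 1.5-fold. The split of higher and lower genes in Huh7 went from 83 and 58 to 115 and 33 under upper-quartile scaling, and between the lines from 2215 and 4194 to 2899 and 3125 (NC-siRNA) and from 2121 and 3937 to 2807 and 2972 (COP1-siRNA) under median-of-ratios scaling. The causes of these shifts were not tested. The number of reads is unknown, which limits SLC7A7 and SLC3A1 in HepG2 and SLC7A8 and SLC3A1 in Huh7, all under 1 TPM. The labels give no replicate numbers, and no fit that pairs the siRNAs within each line was made, since the set was picked on the siRNA comparison.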

Other observations

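The list from cystine to glutathione also holds NRF2 and enzymes of the wider antioxidant response. With NC-siRNA, 5 of its 11 genes were higher in Huh7 past 2-fold, 0 were lower, and all 11 had a log2 difference above 0, with a median of 0.87 beside −0.37 for all genes tested, of which 14.7% were higher past 2-fold. With COP1-siRNA, 4 of 11 were higher and 0 lower, 9 lay above 0 and 2 below, and the median was 0.91. The 5 genes were GSR, glutathione reductase, at 255 TPM in Huh7 against 82.1 TPM in HepG2 with NC-siRNA, TXNRD1, thioredoxin reductase, at 550 against 158 TPM, the quinone reductase NQO1 at 504 against 102 TPM, their regulator NFE2L2 (NRF2) at 230 against 47.8 TPM, and GCLM, a subunit of the first enzyme of glutathione synthesis, at 50.8 against 22.3 TPM. Of these, only GCLM is an enzyme of glutathione synthesis. The other synthesis enzymes of the list did not pass 2-fold, GCLC with 27.3 against 26.6 TPM and GSS with 110 against 64.9 TPM. All of these genes were chosen after their values were seen. SLC7A11, which supplies the cystine, was at 5.81 TPM in Huh7 against 9.61 TPM in HepG2 with NC-siRNA. This log2 difference of −0.64 did not pass 2-fold, and 39.8% of all genes tested lay at least as low. With COP1-siRNA the difference was −1.01. Under median-of-ratios scaling the values were −0.34 and −0.71. In Huh7, NQO1 and TXNRD1 had log2 fold changes of −0.52 and −0.55 with COP1-siRNA, under 1.5-fold.

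The users of arginine and ornithine, the cargo of SLC7A1, SLC7A2 and SLC7A7, had members on both sides, with 3 of 11 tested higher in Huh7 and 4 lower with NC-siRNA, beside 14.7% and 27.9% of all genes tested. Arginase ARG1 was at 5.69 TPM in Huh7 against 0.254 TPM in HepG2, argininosuccinate lyase ASL at 61.8 against 13.7 TPM, and the polyamine enzyme SAT1 at 283 against 48.6 TPM. On the side of HepG2, ornithine aminotransferase OAT was at 53.9 TPM in Huh7 against 200.3 TPM, argininosuccinate synthase ASS1 at 32.2 against 86.9 TPM, and the nitric oxide synthases NOS2 and NOS3, both at 0 in Huh7, at 1.53 and 8.64 TPM. These genes were chosen after their values were seen.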
